A study of Homo sapiens with 18 samples.

Results

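Enhancers that carried RNA with vehicle alone in 2 human acute myeloid leukaemia cell lines were examined here. Of 3863 enhancers with tag counts, 484 (12.5%) held at least 10 tags when the 6 vehicle libraries were added up, and these 484 are called the vehicle-active enhancers. The lines were OCI-AML2 and OCI-AML3, both established myeloid leukaemia lines, and each was given DMSO vehicle, JQ1 or OTX015. Every one of these 6 groups had 3 libraries, so that 18 libraries were compared, and the doses and hours of treatment are not given in the labels. The labels do not say whether the 3 libraries of a group came from separate cultures, so the p-values below measure the spread between these libraries, which may be technical. The enhancers were chosen by their vehicle tags. Comparisons of these enhancers with or among the vehicle libraries are therefore given as descriptions, with no test, and tests were kept for comparisons within the treated libraries and for the tags of neighbouring genes.

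Enhancers are stretches of DNA, often far from a gene, that bind transcription factors and raise the output of promoters. Active enhancers are themselves transcribed, usually in both directions, into short and unstable RNAs. Cap analysis of gene expression (CAGE) reads the first bases of capped RNAs, so a CAGE tag inside an enhancer marks the start of such a transcript. The BET proteins bind acetylated histones at enhancers and promoters and help RNA polymerase II to leave the start site. JQ1 and OTX015, the latter also called birabresib, belong to the thienotriazolodiazepines and free BET proteins from chromatin by filling their acetyl-lysine pocket. The side chain of JQ1 ends in a tert-butyl ester and that of OTX015 in a hydroxyphenyl amide. In myeloid leukaemia, BET inhibitors are known for lowering the transcription of genes that depend on large enhancer clusters.

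The libraries held 313300 to 2180812 tags in promoters and 2103 to 7646 tags in enhancers, and the libraries numbered 3 were the shallowest. An enhancer level below is its tag count per 1000000 promoter tags of the library, and a gene level is in counts per 1000000 gene tags (CPM). Of 10 myeloid markers, 9 had a row in the gene table, all but MPO. In OCI-AML2 the vehicle libraries had a summed marker level of 3730 to 4680 CPM, the JQ1 libraries 2700 to 3090 and the OTX015 libraries 2040 to 2720. In OCI-AML3 it was 3150 to 3540, 816 to 994 and 694 to 932 CPM. KIT was at 0 in all OCI-AML3 libraries. None of the 4 T cell, 4 red cell and 4 epithelial markers had a row, and the B cell markers with a row, CD79A and PAX5, summed to at most 2.88 CPM. The summed myeloid marker level was lower with the drug in every comparison with vehicle. Single markers are not given here and need not all have fallen. What the lower sum contributes to the enhancer levels was not tested. In bulk libraries such as these, fewer cells of a type and less RNA per cell cannot be told apart.

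The sequences below were chosen because the enhancers they touch carry the results that follow: the vehicle-active enhancer with the most tags, one that differed between the lines, one that had no tag with either drug, and a neighbouring gene whose own tags fell. They are the 250 bases before a RefSeq transcript start in GRCh38.p14, written 5′ to 3′ on the strand of the gene. In the first 3, capitals mark the bases that lie inside the enhancer. In the last, which the enhancer does not reach, capitals mark motif matches. The IRF2BP2 stretch is chr1:234610179-234610428 (minus strand) and shares 87 bases with the enhancer chr1:234610342-234611931. The RENO1 stretch is chr17:81345996-81346245 (minus strand) and shares 226 bases with chr17:81346020-81346437. The LOC112267968 stretch is chr6:159121507-159121756 (minus strand) and lies wholly inside chr6:159121353-159121804. The AZU1 stretch is chr19:827587-827836 (plus strand), and the enhancer chr19:823657-823955 lies upstream of it.
IRF2BP2: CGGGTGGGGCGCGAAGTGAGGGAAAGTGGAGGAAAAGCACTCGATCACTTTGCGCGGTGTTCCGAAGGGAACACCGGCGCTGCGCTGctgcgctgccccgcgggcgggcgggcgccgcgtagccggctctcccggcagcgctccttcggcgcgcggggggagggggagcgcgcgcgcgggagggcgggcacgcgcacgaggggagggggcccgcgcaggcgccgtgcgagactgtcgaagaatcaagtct
RENO1: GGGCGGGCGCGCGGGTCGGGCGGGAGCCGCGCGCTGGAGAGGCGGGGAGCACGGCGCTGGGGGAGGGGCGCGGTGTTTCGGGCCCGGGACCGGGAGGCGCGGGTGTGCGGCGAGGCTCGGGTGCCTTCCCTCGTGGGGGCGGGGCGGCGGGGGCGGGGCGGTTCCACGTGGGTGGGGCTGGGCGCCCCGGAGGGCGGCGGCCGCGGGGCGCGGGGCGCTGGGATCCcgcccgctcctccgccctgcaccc
LOC112267968: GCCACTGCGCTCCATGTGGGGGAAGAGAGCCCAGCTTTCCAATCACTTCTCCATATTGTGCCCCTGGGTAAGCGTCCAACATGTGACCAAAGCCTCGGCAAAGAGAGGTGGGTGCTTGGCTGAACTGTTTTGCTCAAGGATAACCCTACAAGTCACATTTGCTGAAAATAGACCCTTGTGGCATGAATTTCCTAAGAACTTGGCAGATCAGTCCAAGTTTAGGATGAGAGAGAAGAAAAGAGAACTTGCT
AZU1: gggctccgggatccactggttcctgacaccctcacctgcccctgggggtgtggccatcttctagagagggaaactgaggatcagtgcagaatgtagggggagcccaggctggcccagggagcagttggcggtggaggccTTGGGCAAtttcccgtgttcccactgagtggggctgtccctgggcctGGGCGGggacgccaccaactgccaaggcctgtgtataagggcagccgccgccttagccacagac

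Of the 484 enhancers, 38 overlapped a RefSeq promoter window of 300 bases, in 45 windows. These windows were searched on both strands for short motifs of factors known from myeloid cells or core promoters. GAGGAA, the core of ETS and PU.1 sites, was in 31.1% of the 45 windows and in 27.9% of all 35116 windows. TGANTCA, the AP-1 site, was in 13.3% against 7.71%, TGTGGT, the RUNX site, in 15.6% against 13.1%, and TTGCNNAA, a C/EBP site, in 6.67% against 10.5%. CACGTG, the E-box bound by MYC, was in 6.67% against 7.26%, and TATAAA, the TATA box, in 6.67% against 11.5%. CCGCCC, the SP and KLF site, was in 60.0% against 45%, and the median GC content was 68.7% against 58.7%. Counted from 1 at the 5′ end of the printed stretch, IRF2BP2 holds GAGGAA at bases 29 to 34, inside the enhancer. RENO1 holds CACGTG at bases 165 to 170. LOC112267968 holds TTGCNNAA at bases 130 to 137 and again at 159 to 166. AZU1 holds TTGCNNAA, on the minus strand, at bases 140 to 147 and CCGCCC, also on the minus strand, at bases 187 to 192. A match is a description of letters and does not show that a factor binds there.

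The vehicle-active enhancers were unequal in their output. Vehicle tags per enhancer ran from 10 to 1142 with a median of 18, and 265 had 10 to 19 tags, while 21 had 100 or more. The 2 highest held 12.5% of the tags of all 484, and the 10 highest held 22.1%. Together the 484 held 66.7% of the vehicle tags of all enhancers (16257 of 24387) and 59.4% of the drug tags. Both lines gave vehicle tags in 434 of them, 25 had none in OCI-AML2 and 25 had none in OCI-AML3. A tag was present in all 6 vehicle libraries for 205 and in all 18 libraries for 97. At the edge of the rule, the 44 enhancers with exactly 10 vehicle tags had a mean level per enhancer of 1.12 in OCI-AML2 and 1.18 in OCI-AML3 with vehicle, and the 57 with 9 tags, which were left out, had 0.921 and 1.1. With OTX015 the 44 had a mean level of 2.48 in OCI-AML2 and 4.65 in OCI-AML3, and the 57 had 1.53 and 2.93.

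The highest vehicle levels lay at a small set of named places. The enhancer chr1:234610342-234611931, centred 1611 bases upstream of IRF2BP2, which encodes a transcriptional corepressor, had 1142 vehicle tags. The next, chrX:23692064-23692426, is intergenic with its centre 14955 bases from the start of ACOT9, which encodes a mitochondrial acyl-CoA thioesterase, and had 888. Its level with vehicle was 119 ± 41.1 (SD, n = 3) in OCI-AML2 and 73.5 ± 12.8 in OCI-AML3. Others among the 10 highest of a line were in an intron of PRAM1, an adaptor protein of myeloid cells, in an intron of RXRA, a nuclear receptor for retinoids, and upstream of AZU1, which encodes the granule protein azurocidin. One of the 10 highest in both lines, chr8:78762346-78762627 in an intron of IL7, overlaps a processed pseudogene, where tags of a near-identical copy could be counted. Its level was 30.3 ± 7.03 in OCI-AML2 and 21.2 ± 5.46 in OCI-AML3 with vehicle.

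Where the enhancers lie was not used to choose them. Coordinates without a build tag were read as hg38 (361 of 484), and 123 carry hg19 in their name. Of the 361, 52 (14.4%) were centred within 500 bases of an annotated transcript start, against 148 of 2828 (5.23%) of the enhancers with fewer vehicle tags. Another 28.5% against 31.5% lay at 500 to 2000 bases, 32.4% against 34.6% at 2000 to 10000, 22.2% against 24.9% at 10000 to 50000 and 2.49% against 3.78% farther out. The median distance was 2721 bases against 3925. Introns held 46.3% against 57.6%, intergenic sequence 47.6% against 39.2% and exons 6.09% against 3.22%. The median width was 488 bases against 397. Of the 123 with hg19 coordinates, 79 (64.2%) overlapped a promoter of the promoter table, against 20.5% of the others of that kind, and tags in such an overlap may be counted in both tables. A processed pseudogene was overlapped by 8 of the 361 (2.22%), against 0.919% of the others. Enhancers are not independent samples, so these shares are given without a test.

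**Figure D1:**
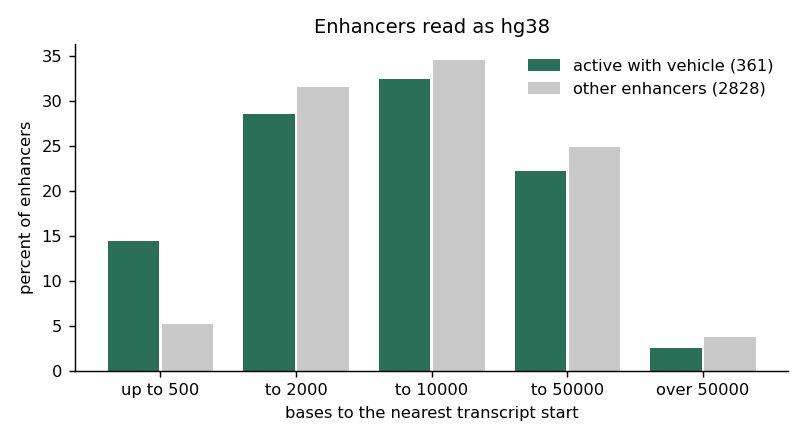
Percent of enhancers (vertical axis, from 0) by distance in bases from the centre to the nearest annotated transcript start (horizontal axis, 5 classes), for the 361 vehicle-active enhancers read as hg38 and the 2828 with fewer vehicle tags. The class within 500 bases holds 14.4% of the first and 5.23% of the second.

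With either drug the summed level of the 484 enhancers was higher than with vehicle, in both lines, and the increase was unevenly shared among them. The 3 OCI-AML2 vehicle libraries summed to 1559 ± 177 tags per 1000000 promoter tags (1380 to 1734), the JQ1 libraries to 2927 ± 415 (2625 to 3400) and the OTX015 libraries to 3541 ± 475 (3091 to 4038). In OCI-AML3 the vehicle sum was 2146 ± 143 (1990 to 2270), the JQ1 sum 5504 ± 2220 (4179 to 8062) and the OTX015 sum 6082 ± 1870 (4977 to 8241). No drug library overlapped the vehicle libraries of its line. The ratio of means was 1.88-fold for JQ1 and 2.27-fold for OTX015 in OCI-AML2, and 2.56-fold and 2.83-fold in OCI-AML3. Over all 3863 enhancers it was 2.03-fold and 2.29-fold in OCI-AML2, and 3.04-fold and 3.4-fold in OCI-AML3. The rise is therefore not particular to the 484. Both drugs were set against the same vehicle libraries. The highest OCI-AML3 sums with each drug were those of the shallow libraries numbered 3, and without the libraries numbered 3 the log2 ratios were 0.707 and 0.998 in OCI-AML2 and 0.925 and 1.17 in OCI-AML3, against 0.909, 1.18, 1.36 and 1.5 with all. Scaling by the trimmed mean of M values (TMM) of the promoter table gave 0.701, 0.946, 0.908 and 0.999. The number of the 484 with any tag was 396.3 ± 40.5 with vehicle, 347.7 ± 32.5 with JQ1 and 331.3 ± 32.1 with OTX015 in OCI-AML2, and 411.7 ± 38.6, 347 ± 26.6 and 333 ± 22.7 in OCI-AML3. The rule asked for vehicle tags, and depth differed too: promoter tags were 963317 to 2180812 with vehicle and 459857 to 1230181 with OTX015 in OCI-AML2, and 828024 to 1880131 and 313300 to 816584 in OCI-AML3. Nothing is therefore read from these numbers of tagged enhancers. MALAT1, a nuclear long non-coding RNA, took 0.102 to 0.291% of gene tags in the vehicle libraries and 1.41 to 6.75% in the drug libraries, and its part in the scaled levels was not tested.

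**Figure D2:**
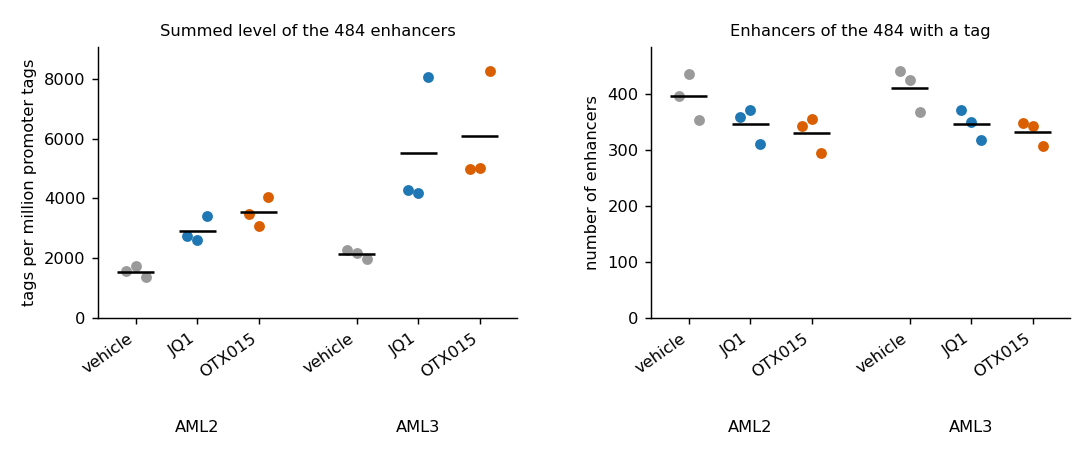
Left, summed level of the 484 enhancers in tags per 1000000 promoter tags; right, number of them with at least 1 tag; both axes start at 0. Points are the 3 libraries of each of the 6 groups and bars are means: all drug libraries lie above the vehicle libraries of their line in the left plot, and group means fall from 396.3 and 411.7 to between 331.3 and 347.7 in the right plot; the rule asked for vehicle tags and the drug libraries were shallower.

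The increase was unevenly spread over the enhancers. Set against vehicle, 273 of the 484 had a higher mean with JQ1 in OCI-AML2, 190 a lower one and 21 an equal one. The split was 276, 184 and 24 with JQ1 in OCI-AML3, 270, 192 and 22 with OTX015 in OCI-AML2, and 277, 185 and 22 with OTX015 in OCI-AML3. In OCI-AML2 with JQ1, the enhancers with a higher mean added 1654 to the summed level and those with a lower mean changed it by -285.5. The 10 largest rises in mean made up 46.6% of the net change with JQ1 and 48.9% with OTX015 in OCI-AML2, and 36.8% and 35.6% in OCI-AML3. Of the 484, 12 and 11 enhancers in OCI-AML2, and 18 with each drug in OCI-AML3, reached 50% of it. The enhancer near IRF2BP2 alone added 197 of the net 1368 with JQ1 in OCI-AML2, and chr7:128531041-128531551 added 236 of the net 3358 in OCI-AML3.

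Per enhancer the shift was smaller than the sum shows. Of the 484, 428 passed the filter of at least 3 tags in at least 3 libraries, and the others had too few tags to be fitted. The median log2 difference from vehicle over the 428 was 0.294 with JQ1 and 0.375 with OTX015 in OCI-AML2, and 0.526 and 0.651 in OCI-AML3, where the medians over all 849 fitted enhancers were 0.893, 1.01, 1.59 and 1.68. Since enhancers with few vehicle tags enter the 849 only through the drug libraries, the gap between those medians follows from how the sets were formed. TMM scaling of the promoter table lowered the 4 medians to 0.122, 0.19, 0.174 and 0.226. The rule used these contrasts, so no calls are given. As a description of the libraries, all 6 drug libraries lay above all 3 vehicle libraries for 71 of the 484 in OCI-AML2, 120 in OCI-AML3 and 42 in both lines. Of all 3863 enhancers, 144 (3.73%), 338 (8.75%) and 72 (1.86%) did so. The drug libraries lay below for 30 of the 484 in OCI-AML2, 42 in OCI-AML3 and 7 in both lines. Of all 3863, 63 (1.63%), 72 (1.86%) and 7 (0.181%) did so. The rule used these values, so nothing is read from the shares.

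The enhancer next to LMO2, which encodes a LIM-domain adaptor of blood stem cell transcription factor complexes, went from nearly silent to one of the highest. It lies at chr11:33892999-33893225, intergenic, centred 823 bases upstream of an LMO2 start. In OCI-AML2 it had 2, 1 and 0 tags with vehicle, 73, 52 and 103 with JQ1, and 86, 126 and 133 with OTX015. In OCI-AML3 it had 8, 5 and 1 tags, then 136, 112 and 73, and 115, 118 and 36. Every drug library was above every vehicle library of its line. In levels, OCI-AML2 went from 0.579 ± 0.647 to 96.8 ± 72.3 and 161 ± 111. Ratios were also taken from the pooled tags of each group over its pooled promoter tags. They were 124 with JQ1 (95% counting interval 41.9 to 605) and 206 with OTX015 (69.8 to 1000). Every ratio below with a counting interval was taken this way and can differ from the ratio of mean levels. Intervals of this kind cover counting error only. In OCI-AML3 the levels were 3.13 ± 1.67, 148 ± 34 and 135 ± 17.7, and the log2 differences were 5.39 (SE 0.591) with JQ1 and 5.27 (SE 0.591) with OTX015.

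An intronic enhancer of GTF2A1, which encodes large subunits of the general transcription factor TFIIA, lies at chr14:81219169-81219729, centred 1473 bases inside the gene from its start. It had 3, 5 and 7 tags with vehicle in OCI-AML2, 27, 16 and 44 with JQ1, and 28, 56 and 53 with OTX015. In OCI-AML3 the tags were 5, 2 and 6, then 82, 64 and 105, and 75, 84 and 62. No drug library reached down to the vehicle libraries of its line. Mean levels went from 3.83 ± 2.99 to 38.4 ± 33.4 and 63.5 ± 45.5 in OCI-AML2, and from 3.82 ± 3.01 to 140 ± 112 and 132 ± 57.6 in OCI-AML3. The spread over the drug libraries was wide. The log2 differences were 3.38 and 4.12 in OCI-AML2 and 5.27 and 5.19 in OCI-AML3.

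An enhancer named in hg19, chr11:65264635-65265953, ends 554 bases before the plus-strand promoter (chr11:65266507-65266522) that carried 99.43 to 99.92% of the MALAT1 tags. It had 3, 8 and 3 tags in the OCI-AML2 vehicle libraries, 42, 48 and 16 with JQ1 and 82, 84 and 31 with OTX015. The OCI-AML3 tags were 15, 4 and 7, then 58, 38 and 33, and 64, 67 and 36. Mean levels were 2.9, 35.4 ± 7.13 and 74.2 ± 11.1 in OCI-AML2, and 6.52, 61 ± 21.4 and 92.6 ± 19.6 in OCI-AML3. The log2 differences from vehicle were 3.55 with JQ1 and 4.61 with OTX015 in OCI-AML2, and 3.18 and 3.80 in OCI-AML3. It overlaps 7 promoters of the promoter table, so its tags and those of the MALAT1 region are not separate measures.

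The enhancer upstream of IRF2BP2, with the printed stretch at its edge, was higher with both drugs in OCI-AML2, while in OCI-AML3 its JQ1 libraries overlapped the vehicle libraries. Its OCI-AML2 tags were 67, 181 and 78 with vehicle, 234, 261 and 211 with JQ1, and 235, 254 and 167 with OTX015. The OCI-AML2 levels were 68.9 ± 22.7, 266 ± 87.3 and 273 ± 81, with log2 differences of 1.94 (SE 0.466) and 1.98 (SE 0.467). In OCI-AML3 the levels were 202 ± 11.5 with vehicle, 266 ± 132 with JQ1 and 340 ± 134 with OTX015. The OTX015 libraries there (252 to 495) lay above the vehicle libraries (193 to 215), and the JQ1 libraries (164 to 415) spread to either side of them. The intergenic enhancer chr7:128531041-128531551, centred 227 bases from the start of the non-coding AC090114.2, had levels of 18.5 ± 2.56, 62.8 ± 15.6 and 77.8 ± 28.7 in OCI-AML2 and 35.8 ± 5.96, 272 ± 166 and 302 ± 124 in OCI-AML3. Its log2 differences from vehicle were 1.74 and 2.03 in OCI-AML2 and 2.92 and 3.07 in OCI-AML3. The ACOT9 region enhancer had 173 ± 30.2 with JQ1 and 312 ± 182 with OTX015 in OCI-AML2, and 170 ± 59.9 and 195 ± 56 in OCI-AML3. An enhancer in an ARID1B intron (chr6:157021373-157022390), a gene for a subunit of the SWI/SNF chromatin remodeller, went from a level of 1.1 ± 0.525 to 26.3 ± 15.9 and 35.3 ± 19.7 in OCI-AML3 and from 2.59 ± 0.614 to 5.6 ± 2.27 and 8.86 ± 3.38 in OCI-AML2. One in an intron of MIRLET7BHG (chr22:46068923-46069325), the host gene of let-7 microRNAs, went from 0.426 ± 0.737 to 10.6 ± 5.47 and 13.9 ± 7.37 in OCI-AML2, and from 5.35 ± 2.74 to 25.7 ± 6.24 and 29.7 ± 2.11 in OCI-AML3.

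**Figure D3:**
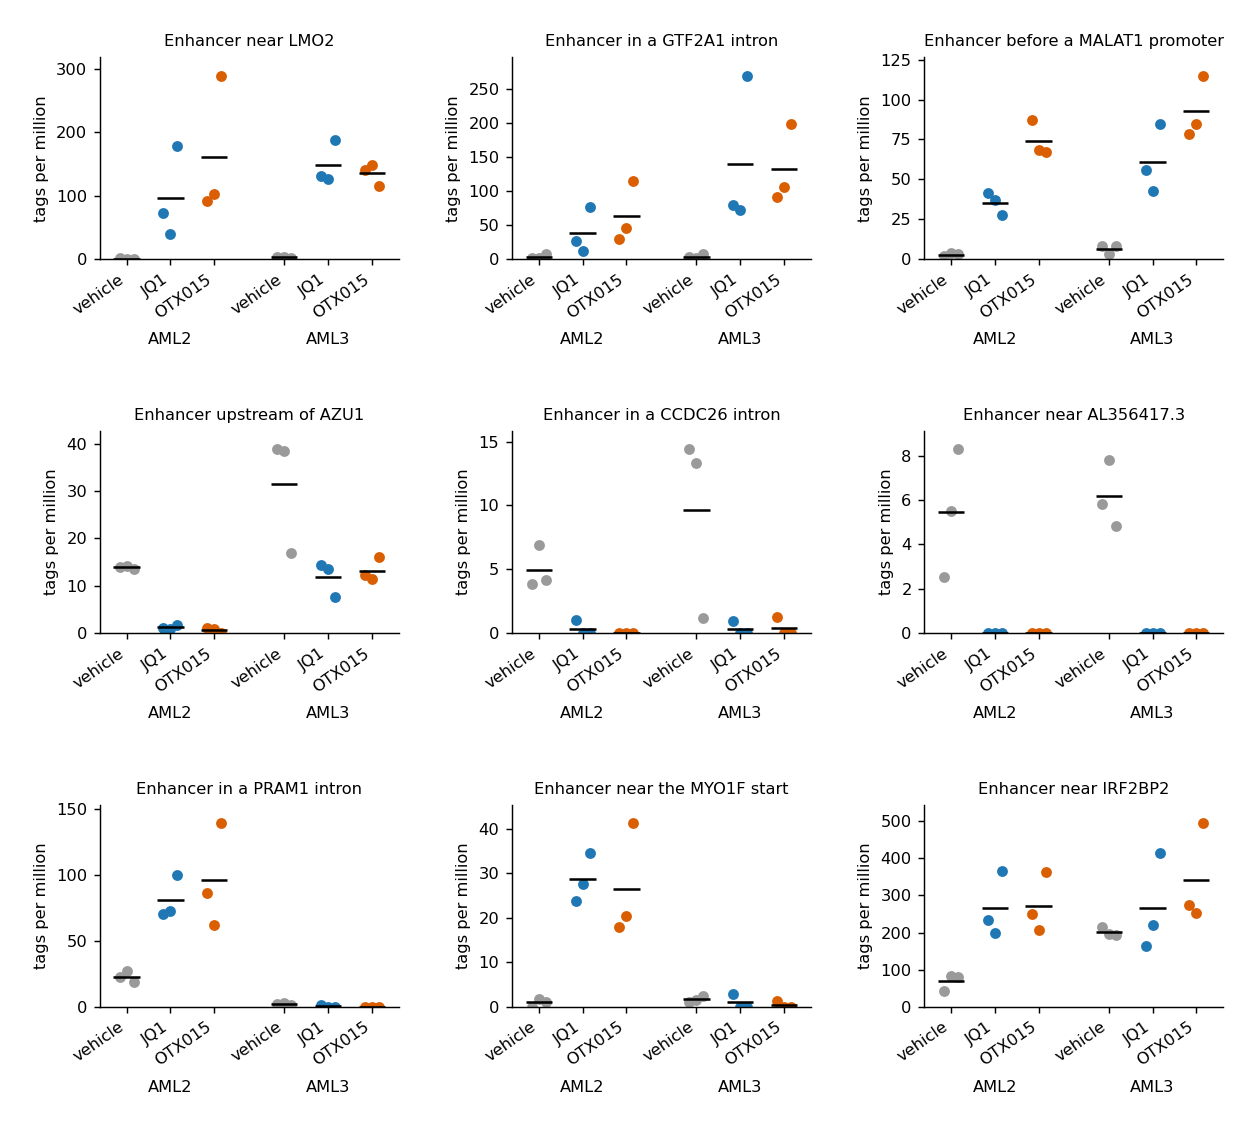
Level of 9 vehicle-active enhancers in tags per 1000000 promoter tags (vertical axes, each starting at 0 with its own range) in the 6 groups; points are the 3 libraries and bars their means. The LMO2 enhancer is near 0 with vehicle and has means of 96.8 to 161 with drug, the AL356417.3 enhancer is at 0 in all 12 drug libraries, and the PRAM1 enhancer is seen mainly in OCI-AML2.

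Some vehicle-active enhancers were almost lost with both drugs. The enhancer chr6:159121353-159121804, which covers the LOC112267968 stretch printed above and is centred 83 bases upstream of the non-coding AL356417.3, had 4, 12 and 8 tags with vehicle in OCI-AML2 and 11, 10 and 4 in OCI-AML3. It had no tag in any of the 12 drug libraries. With a count of 0 allowing up to 3 tags per group, its level was at least 4.91-fold lower with JQ1 and 4.47-fold with OTX015 in OCI-AML2, and at least 4.85-fold and 4.02-fold lower in OCI-AML3. It is one of 5 of the 484 with no drug tag. The enhancer upstream of AZU1, chr19:823657-823955, is intergenic and centred 1291 bases before an AZU1 start. In OCI-AML2 it had 22, 31 and 13 tags with vehicle, 1, 1 and 1 with JQ1, and 1, 1 and 0 with OTX015, and in OCI-AML3 it had 73, 49 and 14, then 15, 12 and 3, and 10, 9 and 5. In each line the vehicle levels were all above the drug levels. The OCI-AML2 level with vehicle was 13.9 ± 0.377. From pooled tags, the vehicle level was 13.5 times that with JQ1 (95% counting interval 4.42 to 67.1) and 18.4 times that with OTX015 (4.91 to 155). The OCI-AML3 levels were 31.4 ± 12.5, 11.9 ± 3.64 and 13.2 ± 2.45, with log2 differences of -1.35 (SE 0.499) and -1.32 (SE 0.516). A second enhancer, in an AZU1 intron at chr19:828898-829277, had levels of 5.71 ± 2.57, 2.25 ± 1.23 and 0.271 ± 0.469 in OCI-AML2 and 6.37 ± 0.883, 1.07 ± 1.13 and 3.55 ± 0.314 in OCI-AML3.

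In introns of CCDC26, a long non-coding RNA gene of myeloid leukaemia, 4 enhancers were vehicle-active. The one with the most tags, chr8:129554562-129555050, had 6, 15 and 4 tags in OCI-AML2 and 27, 17 and 1 in OCI-AML3 with vehicle. It had 1, 0 and 0 with JQ1 in each line, none with OTX015 in OCI-AML2, and 1, 0 and 0 with OTX015 in OCI-AML3. Its OCI-AML3 vehicle libraries touched the drug libraries in tags, since the shallow library held 1 tag. A pair of enhancers in RXRA introns was seen almost only in OCI-AML3. The first, chr9:134372644-134373270, had 37, 34 and 19 tags with vehicle, 1, 3 and 3 with JQ1, and 0, 1 and 1 with OTX015, and the levels were 23.1 ± 3.47, 4.01 ± 3.41 and 1.48 ± 1.61. The second, chr9:134374416-134374810, had a level of 6.2 ± 3 with vehicle and no tag with either drug.

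The 2 lines differed in many of these enhancers under each drug. The means compared come from no vehicle library. The spread was estimated over all 18 libraries, the filter counted all of them, and vehicle tags chose the 484. With JQ1, 157 of 428 enhancers differed at an adjusted p under 0.05 (edgeR's quasi-likelihood test, Benjamini-Hochberg over 849): 119 (27.8%) were higher in OCI-AML3 and 38 (8.88%) lower, where 29.1% and 8.24% of all 849 were. With OTX015, 127 differed: 97 (22.7%) were higher and 30 (7.01%) lower, where 26.0% and 5.42% of all were. The shares are near those of all enhancers tested, so the differences between the lines are not particular to the vehicle-active set. The median log2 difference, OCI-AML3 minus OCI-AML2, was 0.739 with JQ1 and 0.823 with OTX015, and over all 849 it was 1.14 and 1.18. Promoter TMM scaling lowered these medians of all to 0.798 and 0.79 and gave 91 higher and 46 lower with JQ1 (22.1% and 9.66% of all), and 78 and 41 with OTX015 (20.6% and 7.18%). Scaling by TMM of the enhancer table itself gave 62 higher and 68 lower with JQ1 (14.3% and 13.7% of all), and 45 and 56 with OTX015 (11.4% and 10.4%), so the lean toward OCI-AML3 depends on the scaling. Without the library of OCI-AML2 with JQ1 numbered 2, 103 differed with JQ1. DESeq2 called 98 with JQ1 and 92 with OTX015, and gave no adjusted p for 99. The summed level was 1.88-fold higher in OCI-AML3 with JQ1 and 1.72-fold with OTX015, and the OCI-AML3 library was the higher in 9 of 9 library pairs each time.

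Both drugs picked largely the same enhancers as different between the lines, from separate libraries. Of those higher in OCI-AML3, 79 were called with both drugs, which is 66.4% of the JQ1 calls and 81.4% of the OTX015 calls. Of those lower, 27 were called with both, 71.1% and 90.0%. The difference between the lines with JQ1 and that with OTX015 had a Pearson r of 0.88 and a Spearman rho of 0.80 over the 428 enhancers, and 83.6% had the same sign. Those points share enhancers and depth, so the values are a description. The overlap over all enhancers tested is not given, so it is not read as particular to the vehicle-active set. The shared calls include enhancers with tags in 1 line alone, which had to differ. Of the 79 shared higher calls, 42 had vehicle libraries that did not overlap the same way and 3 the opposite way. Of the 27 shared lower calls, 18 did so the same way and 0 the opposite way. Among all 3863 enhancers, 5.95% were higher and 3.62% lower in OCI-AML3 without overlap of the vehicle libraries. Among the 484 it was 25.8% and 12.2%. The rule used the vehicle values, so nothing is read from these shares.

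**Figure D4:**
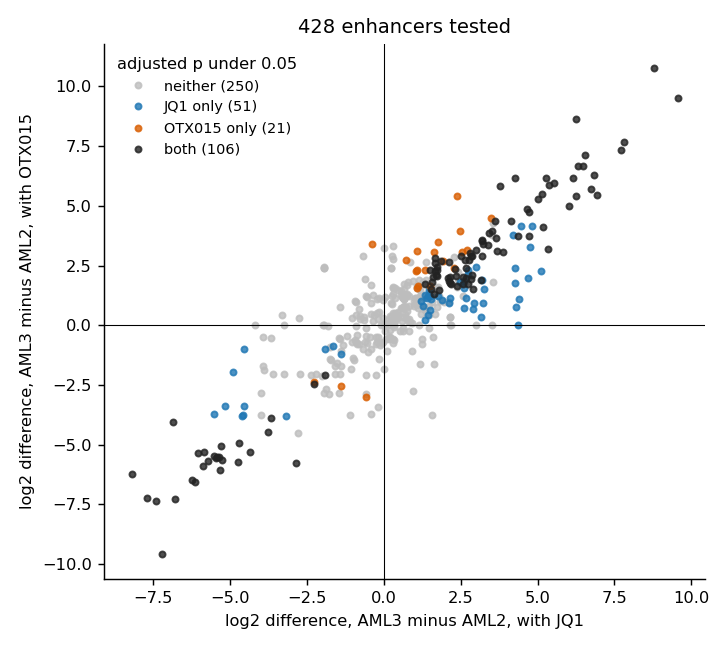
Log2 difference between the lines (OCI-AML3 minus OCI-AML2) with JQ1 (horizontal axis) and with OTX015 (vertical axis), 1 point for each of 428 vehicle-active enhancers, coloured by call at an adjusted p under 0.05. The 106 called with both drugs lie along the diagonal, 51 were called with JQ1 alone, 21 with OTX015 alone and 250 with neither.

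Several enhancers were found in OCI-AML3 and hardly at all in OCI-AML2. An enhancer with tags in 1 line alone met the rule and the filter only through that line and had to differ, so no p is given for it. None is given either for an enhancer with few tags in the other line, whose p is conditioned in the same way. The hg19-named chr17:79368790-79369424, which overlaps 3 promoters of the promoter table, had 204, 148 and 97 tags with JQ1 in OCI-AML3 and 0, 1 and 0 in OCI-AML2. With OTX015 it had 160, 179 and 66 against none. Its level was 559 times higher in OCI-AML3 with JQ1 (95% counting interval 99.8 to 22100) and at least 185-fold higher with OTX015. The intergenic chr17:81387147-81387524, 80 bases upstream of the non-coding AC110285.5, had no tag in any OCI-AML2 library and 73, 65 and 53 with JQ1 and 66, 59 and 37 with OTX015 in OCI-AML3. It was at least 79.3-fold higher with JQ1 and at least 73.9-fold higher with OTX015. On the same chromosome, chr17:81346020-81346437, which holds most of the RENO1 stretch printed above, had 1, 4 and 1 tags with JQ1 in OCI-AML2 and 28, 40 and 42 in OCI-AML3. Its log2 difference with JQ1 was 4.72 (SE 0.642). It had 21 vehicle tags in OCI-AML3 and 1 in OCI-AML2, so it met the rule through OCI-AML3. With JQ1, all 3 of these enhancers were higher in each OCI-AML3 library than in any OCI-AML2 library.

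The intergenic chr7:25855034-25855326, whose nearest listed start is 297060 bases away at NFE2L3, had only 10 vehicle tags but 41, 34 and 11 with JQ1 and 43, 36 and 14 with OTX015 in OCI-AML3. In OCI-AML2 it had 0, 0 and 1 with JQ1 and none with OTX015. The ratio with JQ1 was 107 (95% counting interval 18.7 to 4280), and with OTX015 the level was at least 42.4-fold higher. The hg19-named chr16:89268043-89268411 overlaps a promoter of SLC22A31, a gene of the solute carrier family, and was at least 23.7-fold higher with JQ1 and 19.6-fold with OTX015, with no tag in OCI-AML2. The hg19-named chr6:170600439-170600921 was 91.7 times higher with OTX015 (95% counting interval 15.9 to 3680).

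Others were found in OCI-AML2 and hardly at all in OCI-AML3, and the same limits on p apply to them. The PRAM1 intron enhancer, chr19:8500051-8500446, had 35, 59 and 18 tags with vehicle in OCI-AML2, 71, 95 and 58 with JQ1 and 81, 76 and 64 with OTX015. In OCI-AML3 it had 4, 4 and 1, then 1, 0 and 0, and no tag with OTX015. Between the lines its level was 180 times lower in OCI-AML3 with JQ1 (95% counting interval 32 to 7140) and at least 53.8-fold lower with OTX015. Upstream of WRNIP1, a gene for a helicase-interacting ATPase, chr6:2763016-2763302 had levels of 34.7 ± 10.8 with JQ1 and 46.8 ± 22.1 with OTX015 in OCI-AML2 and 1 tag in all 6 OCI-AML3 drug libraries. It was at least 28.9-fold lower in OCI-AML3 with JQ1 and 102 times lower with OTX015 (95% counting interval 18.1 to 4070). In an intron of TTC39A, chr1:51303775-51304355 was at least 20.1-fold lower with JQ1.

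At the start of BCL11A, a zinc-finger repressor of blood lineages, the exonic enhancer chr2:60554420-60555705 had 25, 31 and 6 tags with JQ1 and 29, 22 and 4 with OTX015 in OCI-AML2. It had none in any OCI-AML3 library, and was at least 16.6-fold and 13.4-fold lower there. In OCI-AML2 the BCL11A gene itself was at 33 CPM in the vehicle libraries, 52.5 in those with JQ1 and 47.2 in those with OTX015, and in OCI-AML3 it was at 0. The enhancer chr13:99980401-99981433, 855 bases upstream of the zinc-finger gene ZIC2, was 21.2 times lower in OCI-AML3 with OTX015 (95% counting interval 7.01 to 105). It had 31 vehicle tags in OCI-AML2 and 2 in OCI-AML3, so it met the rule through OCI-AML2. In an exon of MYO1F, a myosin of myeloid cells, chr19:8576584-8576951 had 24, 36 and 20 tags with JQ1 and 17, 25 and 19 with OTX015 in OCI-AML2, after 0, 4 and 1 with vehicle. The OCI-AML3 tags were 2, 2 and 2, then 3, 0 and 0, and 1, 0 and 0. It was 21.4 times lower in OCI-AML3 with JQ1 (95% counting interval 7.07 to 106) and 44.6 times lower with OTX015 (7.7 to 1790).

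JQ1 and OTX015 were compared with each other in each line, 2 comparisons over 428 enhancers each. Doses and times are not given in the labels, so a match of dose cannot be stated. None of the 428 differed at an adjusted p under 0.05 in either line, nor did any of the 849 (0.0%) in edgeR's quasi-likelihood test, and DESeq2 also called 0. At an unadjusted p under 0.05 there were 15 of 428 in OCI-AML2 and 5 in OCI-AML3. The median log2 difference, OTX015 minus JQ1, was 0.0438 in OCI-AML2 and 0.115 in OCI-AML3, and the summed level was 1.21-fold and 1.1-fold that with JQ1. The intervals were wide: the median width of a 95% interval was 3.4 log2 units in OCI-AML2 and 3.05 in OCI-AML3. An interval within 1 log2 unit of 0 was reached by 4 and 8 enhancers, and one within 2 units by 152 and 195. At the LMO2 enhancer the difference was 0.74 (-0.15 to 1.63) in OCI-AML2 and -0.12 (-1.0 to 0.77) in OCI-AML3. At the enhancer before the MALAT1 promoter it was 1.06 (0.14 to 1.97) in OCI-AML2, an interval that is not adjusted over the enhancers. At the IRF2BP2 enhancer it was 0.04 (-0.84 to 0.92) in OCI-AML2. Without the libraries numbered 3, 4 enhancers were called in OCI-AML2, all higher with OTX015. They were chrX:23692064-23692426 in the ACOT9 region (log2 1.19, edgeR adjusted p = 0.00392), chr11:123422692-123423015 (1.93, adjusted p = 0.0119), and, in hg19, chr15:65596702-65597188 (1.12, adjusted p = 0.0356) and the one before the MALAT1 promoter (0.979, adjusted p = 0.0483).

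Genes near the vehicle-active enhancers rose more often than they fell with JQ1 or OTX015. In OCI-AML3 their shares were nearer to those of all genes than in OCI-AML2. The choice of enhancers did not use gene tags, but these come from the same libraries. Neighbours of the other enhancers are not given, so nothing here is particular to the vehicle-active set. A neighbour is the gene with the nearest annotated start within 100000 bases of the centre of an enhancer read as hg38; 331 enhancers had one, giving 276 genes, of which 218 were tested. With JQ1 in OCI-AML2, 66 rose (30.3%, where 17.2% of all 10031 genes tested did) and 19 fell (8.72% against 17.4%). With OTX015 there, 70 rose (32.1% against 20.5%) and 23 fell (10.6% against 19.9%). In OCI-AML3, 71 rose (32.6% against 26.9%) and 47 fell (21.6% against 24.0%) with JQ1, and 78 rose (35.8% against 28.9%) and 50 fell (22.9% against 26.0%) with OTX015. With gene totals in place of TMM the OCI-AML3 counts were 94 that rose and 28 that fell with JQ1, where 36.2% and 13.7% of all genes did, and 96 and 26 with OTX015, where 40.0% and 15.2% did. The median log2 change of the 218 was 0.432 with JQ1 and 0.314 with OTX015 in OCI-AML2, and 0.226 and 0.201 in OCI-AML3, while that of all genes was 0.0, 0.0177, 0.0414 and 0.039. The 2 drugs share the vehicle libraries, and enhancers close to a start may hold tags of the gene's own promoter. Between the lines, the difference in an enhancer with JQ1 and that in its neighbour gene with OTX015, from separate libraries, had a Pearson r of 0.58 and a Spearman rho of 0.49 over 233 pairs, with the same sign in 64.8%. The reverse pairing gave 0.58, 0.52 and 63.9%. Pairs that share a gene or a library are not independent, so no p is given.

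**Figure D5:**
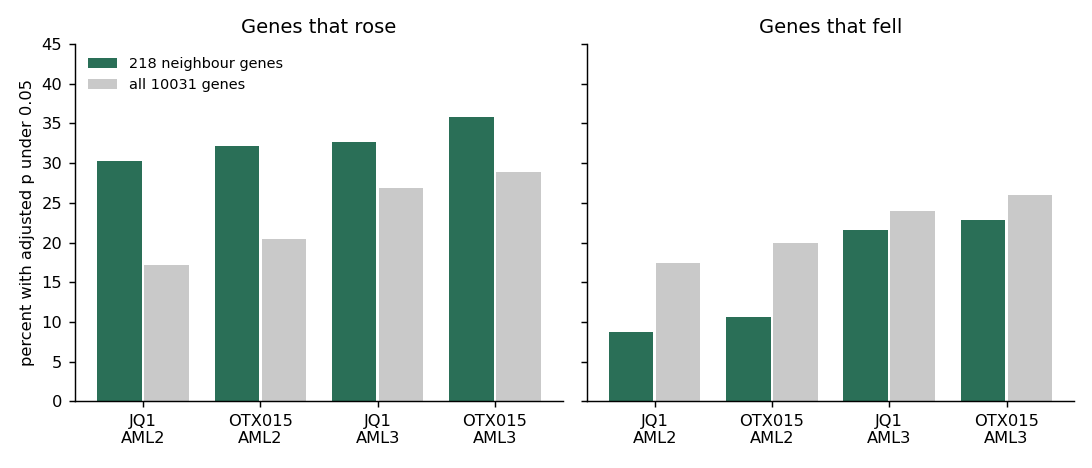
Percent of genes that rose or fell at an adjusted p under 0.05 (vertical axis, from 0) in the 4 comparisons of a drug with vehicle, for the 218 neighbour genes tested and all 10031 genes tested. In OCI-AML2, 30.3% and 32.1% of neighbours rose with JQ1 and OTX015, against 17.2% and 20.5% of all genes.

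The neighbours of the enhancers described above moved in several ways (edgeR's quasi-likelihood test, Benjamini-Hochberg over all genes). They are named because of their enhancer. LMO2 rose with its enhancer, in OCI-AML2 from 55.6 ± 14.9 CPM to 188 ± 41.1 (JQ1) and 200 ± 60.7 (OTX015) (log2 1.77 and 1.86, edgeR adjusted p = 1.63e-05 and 6.5e-06). In OCI-AML3 it rose from 103 ± 4.34 to 242 ± 38.5 and 195 ± 44.8 (1.22 and 0.93, edgeR adjusted p = 0.000368 and 0.00393). GTF2A1 rose from 35.5 ± 7.89 to 79.8 ± 23.4 and 88.3 ± 21.2 in OCI-AML2 (1.17 and 1.31, edgeR adjusted p = 0.000755 and 0.00018) and from 34 ± 5.42 to 93 ± 18.3 and 110 ± 15.4 in OCI-AML3 (1.46 and 1.71, edgeR adjusted p = 4e-05 and 3.99e-06). AZU1 fell, as its upstream enhancer was lower, from 1230 ± 580 to 215 ± 7.74 and 167 ± 22.8 in OCI-AML2 (-2.52 and -2.89, edgeR adjusted p = 1.65e-06 and 2.12e-07) and from 397 ± 99.8 to 91 ± 21 and 54 ± 9.27 in OCI-AML3 (-2.14 and -2.89, edgeR adjusted p = 8.91e-06 and 2.36e-07). CCDC26 fell with JQ1 from 29.2 ± 14.4 to 1.05 ± 1.14 in OCI-AML2 and from 38.6 ± 26.3 to 1.29 ± 1.13 in OCI-AML3 (-4.59 and -4.67, edgeR adjusted p = 0.000112 and 1.92e-05), and had no tag with OTX015.

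At IRF2BP2 the gene and the enhancer parted. The gene fell in OCI-AML3 from 87.9 ± 16 CPM to 11.3 ± 8.6 (JQ1) and 8.3 ± 3.83 (OTX015) (log2 -2.77 and -3.28, edgeR adjusted p = 1.31e-07 and 3.4e-08), where the mean level of its enhancer was not lower with either drug. In OCI-AML2, where the enhancer level was higher with drug, the gene did not pass the test, at 39.5 ± 7.87 CPM in the vehicle libraries, 40.6 ± 3.94 after JQ1 and 28.5 ± 1.9 after OTX015. At MYO1F the gene moved in opposite directions in the 2 lines. It rose in OCI-AML2 from 143 ± 13.1 CPM to 338 ± 17.2 and 338 ± 33.2 (1.24 with each drug, edgeR adjusted p = 5.22e-05 and 4.06e-05). In OCI-AML3 it fell from 118 ± 19.3 to 72.6 ± 7.17 and 69.5 ± 5.6 (-0.71 and -0.78, edgeR adjusted p = 0.00956 and 0.0047). The OCI-AML3 calls were lost with gene totals in place of TMM (adjusted p = 0.263 and 0.274), and that with JQ1 also without the OCI-AML3 vehicle library numbered 1 (adjusted p = 0.0652).

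Genes of 4 lists were the nearest to some of the vehicle-active enhancers. Over all genes, 218 of the 10031 tested were neighbours of such an enhancer. Whether a list differs from all genes in this was not tested. The list of 45 myeloid transcription factors had 17 enhancers at 10 genes, that of 17 BET-dependent and survival genes had 1 at BCL2, that of 29 myeloid receptors and signalling genes had 1 at DUSP6, and that of 15 granule genes had the 2 at AZU1. Of the 10 transcription factor genes, 4 rose and 0 fell with each drug in OCI-AML2, and 4 rose and 4 fell with each drug in OCI-AML3. Of all genes, 17.2% and 20.5% rose and 17.4% and 19.9% fell with JQ1 and OTX015 in OCI-AML2, and 26.9% and 28.9% rose and 24.0% and 26.0% fell in OCI-AML3. The OCI-AML3 count with JQ1 includes MEF2C and ETV6, whose calls were lost in 7 and 4 of the alternatives. Of the 17 enhancers near these 10 genes, those without overlap between drug and vehicle libraries were 4 higher and 1 lower with JQ1 and 3 and 1 with OTX015 in OCI-AML2, and 5 and 3, and 4 and 2, in OCI-AML3. Beside them, 8.18% of all 3863 enhancers were higher and 2.3% lower with JQ1 in OCI-AML2, 7.38% and 2.61% with OTX015, 13.6% and 2.87% with JQ1 in OCI-AML3 and 15.4% and 2.61% with OTX015. RUNX2, a runt-domain factor, rose in OCI-AML2 from 247 ± 82.5 CPM to 715 ± 97.6 and 760 ± 94.3 (log2 1.53 and 1.62, edgeR adjusted p = 0.000123 and 5.13e-05). The RUNX2 intron enhancer chr6:45424396-45424901 had levels of 6.29 ± 2.08, 5 ± 1.78 and 4.32 ± 1.91 there, with no higher mean under drug. EGR1, an immediate-early factor, rose in OCI-AML2 from 18.5 ± 7.21 CPM to 226 ± 149 and 343 ± 255 (3.66 and 4.26, edgeR adjusted p = 2.77e-05 and 3.18e-06) and in OCI-AML3 from 71 ± 40.8 to 329 ± 194 and 377 ± 169 (2.16 and 2.36, edgeR adjusted p = 0.0011 and 0.000411). FOSL2, an AP-1 subunit, rose in OCI-AML2 from 21.8 ± 4.18 CPM to 49.8 ± 17.3 and 67.8 ± 25.4 (1.19 and 1.61, edgeR adjusted p = 0.00332 and 0.000117).

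The lineage factors that fell did so in OCI-AML3. IRF8, a factor of monocyte development, fell from 1090 ± 113 CPM to 239 ± 26.7 and 245 ± 15.4 (log2 -2.19 and -2.16, edgeR adjusted p = 1.63e-07 and 1.47e-07), and the enhancer 45020 bases from its start, chr16:85853613-85853954, had a level of 3.37 with vehicle and no tag with drug. MEF2D, a MADS-box factor, fell from 446 ± 45.1 CPM to 188 ± 13.3 and 176 ± 52.4 (-1.24 and -1.32, edgeR adjusted p = 0.000358 and 0.000168). CEBPA, a factor of granulocyte development, fell from 606 ± 41.9 CPM to 287 ± 43.3 and 330 ± 40.8 (-1.07 and -0.87, edgeR adjusted p = 0.00174 and 0.00739), and its OTX015 call was lost with gene totals in place of TMM (adjusted p = 0.202). MYB, a factor of progenitor growth, fell from 101 ± 23.4 CPM to 43.9 ± 11.4 and 49.3 ± 13.2 (-1.18 and -1.06, edgeR adjusted p = 0.00184 and 0.00417), and both calls were lost with gene totals (adjusted p = 0.0692 and 0.182). Among the signalling and survival genes, DUSP6, a phosphatase that limits ERK signalling, rose in OCI-AML2 from 34 ± 7.71 CPM to 362 ± 43.5 and 398 ± 106 (3.38 and 3.52, edgeR adjusted p = 6.37e-10 and 2.18e-10). Its enhancer chr12:89353897-89354702 had levels of 1.61 ± 1.43, 5.51 ± 4.01 and 9.52 ± 1.61 there. The gene DUSP6 was also called higher in OCI-AML3 with each drug. BCL2, which keeps cells from apoptosis, fell from 88.8 ± 7.79 CPM to 27.5 ± 14.3 and 28.4 ± 10.1 in OCI-AML2 (-1.77 and -1.72, edgeR adjusted p = 1.35e-05 and 1.56e-05) and from 65.7 ± 4.75 to 9.9 ± 1.32 and 14.4 ± 4.95 in OCI-AML3 (-2.73 and -2.23, edgeR adjusted p = 2.47e-07 and 1.86e-06). Its enhancer, chr18:63100130-63100602, had 13 vehicle tags in all, too few to show a difference at this depth.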

How the data were processed

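CAGE tags were measured in 18 libraries, 3 for each of 6 groups of OCI-AML2 and OCI-AML3 cells. The authors deposited raw tag counts per enhancer, promoter and gene symbol; STAR and hg38 are named in the submitters' processing notes, while versions and how enhancers were defined are not given in the sources. Coordinates without a build tag were read as hg38 and placed with GENCODE release 29; hg19 names were only compared with the promoter table. Promoter windows came from RefSeq (GRCh38.p14). Library totals of the promoter table scaled the enhancer counts. edgeR 4.0.16 (R 4.3.3) fitted 1 mean per group over all libraries with the quasi-likelihood test (12 residual degrees of freedom), for enhancers that reached 3 tags in 3 or more libraries and, with TMM, for genes kept by its expression filter; a call is a two-sided Benjamini-Hochberg adjusted p under 0.05. DESeq2 1.42.0 and Python 3.11.15 with matplotlib 3.10.9 were also used, and the fits were tested on simulated data. Counting intervals are 95%, and a count of 0 was set to 3 tags over the group. The ratios given with them, and the bounds given as at least, divide the pooled tags of a group by its pooled promoter tags.

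The enhancers, gene lists and tests were chosen with earlier results of these data known. Named by rule were the 10 highest vehicle levels per line, up to 5 enhancers each way per tested comparison with the smallest adjusted p and no overlap of libraries, up to 5 each way with the largest difference from vehicle among those with at least 20 tags, up to 4 per gene list, and the neighbour genes; the text describes part of these. The labels do not say that equal replicate numbers pair the libraries, and correlation did not settle it, so the main fits used no pairing.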

Additional observations from a re-analysis of the deposited data

Results flagged for a closer look

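The PRAM1 intron enhancer chr19:8500051-8500446 had differences from vehicle of opposite sign in the 2 lines, with every drug library of a line on one side of its vehicle libraries. Its log2 difference was 1.81 in OCI-AML2 and -2.11 in OCI-AML3 with JQ1, and 2.03 and -4.28 with OTX015. The OCI-AML3 values rest on 9 vehicle tags, 1 JQ1 tag and 0 OTX015 tags. As a ratio of tags the OCI-AML3 level was 5.24 times lower with JQ1, with a 95% counting interval of 0.726 to 230 that includes no change, and at least 1.45-fold lower with OTX015. The -4.28 depends on how the fit treats a count of 0. The log2 difference of the gene MYO1F was also of opposite sign, 1.24 in OCI-AML2 and -0.709 in OCI-AML3 with JQ1, and 1.24 and -0.782 with OTX015. For both, the difference between the lines in the response was not tested. The same vehicle libraries stand behind both drugs.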

How the results depend on the processing

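Of the alternatives to the main results, 152 left the count or ratio within the limits set for a change, and 12 moved it. A count within those limits can hide a changed direction: with TMM of the enhancer table the enhancers that differed between the lines were 62 higher and 68 lower in OCI-AML3 with JQ1 and 45 and 56 with OTX015, in place of 119 and 38, and 97 and 30. Between the lines with JQ1, edgeR called 157 of the 428 enhancers and DESeq2 called 98 of the 428. How many both called is not given. The edgeR count was 236 when the enhancers were chosen at 5 or more vehicle tags and 73 at 20 or more. Those sets are larger and smaller by construction. Leaving out 1 library gave 103 to 151. With OTX015 (127), the count was 194 at 5 or more tags and 53 at 20 or more, and 92 to 136 with 1 library left out. Between OTX015 and JQ1 in OCI-AML2, 4 were called from libraries 1 and 2 alone and 0 otherwise; the cause was not tested. When 389 enhancers were chosen on vehicle libraries 1 and 2 and measured in the libraries numbered 3, the log2 ratios of the summed level were 1.39 with JQ1 and 1.63 with OTX015 in OCI-AML2 and 2.05 and 2.07 in OCI-AML3. With promoter TMM scaling the OTX015 ratio in OCI-AML3 was 0.999 in place of 1.5. Leaving out 1 library gave summed ratios of 0.788 to 0.992 and 1.08 to 1.27 in OCI-AML2 with JQ1 and OTX015, and 0.977 to 1.52 and 1.22 to 1.63 in OCI-AML3. Among single enhancers and genes, 972 alternatives left the value as it was, 32 moved it, 17 lost the call and 0 reversed it; MEF2C with JQ1 in OCI-AML3 lost its call in 7 and ETV6 in 4.

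Whether equal replicate numbers pair the libraries was not settled, and the main fits used no pairing. The labels do not state it. By correlation, 11 of 18 libraries were closest to their own number, and same-numbered libraries correlated at -0.0952 to 0.576. With the replicate number as a block, 163 enhancers differed between the lines with JQ1, 147 with OTX015 and 0 between the drugs in either line, and 91, 124, 102 and 135 neighbour genes were called with JQ1 in OCI-AML2 and OCI-AML3 and OTX015 in OCI-AML2 and OCI-AML3. Motif counts in windows centred on all enhancers were not run. Depth limits single enhancers: 265 of 484 had under 20 vehicle tags.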

Other observations

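Vehicle-active enhancers close to annotated starts and those far from them can be set side by side. For 47 fitted enhancers centred within 500 bases of a transcript start, the median log2 difference from vehicle in OCI-AML3 was 1.4 with JQ1 and 1.57 with OTX015. For 176 fitted ones farther than 2000 bases it was 0.555 and 0.573. In OCI-AML2 the medians were 0.251 and 0.35 near a start, and 0.326 and 0.249 far from one. These are descriptions, since vehicle tags chose both sets and the difference between them was not tested.

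A pair of intergenic enhancers about 100000 bases from RET, which encodes a receptor tyrosine kinase, was seen almost only in OCI-AML3 with vehicle. The level of chr10:42975710-42975875 was 10.6 ± 0.469 with vehicle, 1.07 ± 1.13 with JQ1 and 0 with OTX015. The level of chr10:42975223-42975379 was 6.65 ± 2.65 with vehicle, 0 with JQ1 and 0.84 ± 1.46 with OTX015. Of the hg19-named enhancers, chr12:1925056-1925234 was at 7.4 ± 1.93 in OCI-AML2 with vehicle and at 1.09 ± 0.947 and 0.271 ± 0.469 with the drugs. The hg19-named chr17:56736656-56737064 overlaps 1 promoter, whose 903 tags over all libraries nearly equal the enhancer's 904, so both tables may count the same RNA.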
